A study of Mus musculus with 32 samples.

Results

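The Toll-like receptor genes Tlr1, Tlr2, Tlr3, Tlr4, Tlr6, Tlr7, Tlr9 and Tlr13 were followed together with Cd14 and Ly96, which encode the lipopolysaccharide co-receptors CD14 and MD-2. Members were taken by gene symbol, with the gene identifiers matched to GENCODE vM21 and version numbers ignored. All 10 were found among 55487 genes, 8 passed the filter on low counts and were tested, and Tlr3 and Tlr13 fell below it. The cells were mouse fetal liver hematopoietic progenitors immortalised with ER-HOXB8, an estrogen-receptor fusion of HOXB8 that holds progenitors in division while estradiol is present, so every group carried ER-HOXB8 and was grown in estradiol, SCF-conditioned medium and G418. The line hi-77+/+ kept the Gata2 -77 enhancer and is called wild-type, and the line hi-77-/- (genotype Gata2 -77-/-) lacked it and is called mutant; each genotype was 1 line. Each was given vehicle, interferon gamma (IFNg) at 1 ng/ml, the synthetic lipopeptide Pam3CSK4 at 100 ng/ml, or both agents for 4 h, which makes 8 groups of 4 RNA-seq libraries.

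Toll-like receptors are membrane proteins that bind microbial molecules and signal through the adaptors MyD88 and TRIF to NF-kB and interferon regulatory factors. TLR2 pairs with TLR1 to bind triacylated lipopeptides such as Pam3CSK4 and with TLR6 to bind diacylated ones, TLR4 binds lipopolysaccharide with MD-2 and CD14, and TLR3, TLR7, TLR9 and TLR13 bind nucleic acids inside endosomes. Hematopoietic progenitors carry some of these receptors at the surface and can respond to microbial ligands directly, while monocytes, macrophages and dendritic cells carry more of them.

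The upstream sequences of Tlr2, Tlr6 and Tlr1 are shown because these genes encode the subunits of the lipopeptide receptors, whose ligand was 1 of the agents given. They come from the RefSeq windows of 250 bases before each start (build GRCm38.p6, minus strand, written 5′ to 3′), cut back to the bases that no annotated exon of GENCODE vM21 covers. Capitals mark kB motifs (GGGA, any 4 bases and CC, or GGG, any 3 bases and TTCC, bound by NF-kB) in Tlr2 and in the second Tlr6 window, the ISRE motif (GAAA, any 2 bases and GAAA, found at interferon-stimulated genes) in the first Tlr6 window, and the ETS motif GAGGAA in Tlr1, each searched on both strands.
Tlr2, chr3:83841768-83841858: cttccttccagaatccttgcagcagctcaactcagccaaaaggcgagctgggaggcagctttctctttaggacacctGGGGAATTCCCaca
Tlr6 first window, chr5:64959167-64959416: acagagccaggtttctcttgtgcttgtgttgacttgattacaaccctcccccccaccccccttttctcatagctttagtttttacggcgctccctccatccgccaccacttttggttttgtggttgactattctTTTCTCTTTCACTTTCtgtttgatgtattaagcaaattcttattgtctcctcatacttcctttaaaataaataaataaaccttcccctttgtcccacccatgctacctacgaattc
Tlr6 second window, chr5:64960098-64960298: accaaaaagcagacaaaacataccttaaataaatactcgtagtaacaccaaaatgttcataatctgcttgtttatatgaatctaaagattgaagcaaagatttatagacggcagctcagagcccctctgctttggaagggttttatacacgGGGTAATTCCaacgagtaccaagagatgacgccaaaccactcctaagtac
Tlr1, chr5:64933564-64933808: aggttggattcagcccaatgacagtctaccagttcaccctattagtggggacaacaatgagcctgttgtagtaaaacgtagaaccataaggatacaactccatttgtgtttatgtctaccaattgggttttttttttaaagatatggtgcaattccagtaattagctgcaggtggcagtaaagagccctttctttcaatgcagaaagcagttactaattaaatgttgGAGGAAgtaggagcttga

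The Tlr2 window held overlapping kB matches at bases -173 to -164 and -172 to -163 from the RefSeq start. The first Tlr6 window, which lies inside the annotated gene and outside its exons, held overlapping ISRE matches at -116 to -107 and -110 to -101, and the second held a kB match at -99 to -90. Among all 32851 RefSeq windows of 250 bases, 19.6% held a kB motif, 2.98% an ISRE, 23.3% an ETS motif, 7.02% a GAS motif (TTCNNNGAA) and 9.99% a GATA motif (AGATAA). A second Tlr1 window held a GAS match at -228 to -220. Of the other members, Tlr3 had 2 kB matches and 1 GATA match, Tlr9 had 1 GATA and 1 ETS match, and Tlr13 had 1 ETS match. In all, 6 of the 10 members had windows, 8 windows together; Tlr4, Tlr7, Ly96 and Cd14 had none in the table. A match is a run of letters and not a measured binding site.

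Library totals lay from 44.18 M to 71.42 M expected counts, with 17427 to 21034 genes above 0. Levels are CPM (counts scaled by library size and TMM factor), and changes are log2 fold changes ± SE from edgeR's quasi-likelihood test with Benjamini-Hochberg adjustment over all 14869 tested genes; a gene passed with an adjusted p under 0.05. Whether the 4 libraries of each group are separate cultures is not in the labels, and the p-values speak only for the spread among these libraries, which may be technical. Gata2 stood at a mean of 38.6 to 44.4 CPM in the wild-type groups and 6.58 to 7.57 CPM in the mutant groups. All 6 progenitor markers were at 1 CPM or more in every group (summed 4523 to 5179 CPM), and the 4 hepatocyte markers summed to 0.304 CPM or less in each library. Counts in structural RNAs (small nuclear, nucleolar and similar RNAs and mitochondrial transcripts) made up 23.94 ± 4.17% of wild-type vehicle libraries against 13.62 to 15.89% on average in the treated wild-type groups, and 21.08 to 27.32% in the mutant groups.

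Summed markers of other cell types differed between the genotypes, and the genes of a list did not always move alike. The 8 monocyte and macrophage markers summed to 170 to 243 CPM in wild-type and 314 to 458 CPM in mutant libraries, mostly from Ccr2, while Adgre1, the macrophage marker F4/80, averaged 20.9 CPM in wild-type and 6.01 CPM in mutant vehicle libraries and the mannose receptor gene Mrc1 had 3 counts or fewer in each wild-type group. The sum of the 6 dendritic markers came mainly from Flt3, at 198 CPM in wild-type and 373 CPM in mutant vehicle libraries. Zbtb46 averaged 1.71 and 1.69 CPM there. In each wild-type group 3 of the 6 reached 1 CPM in a library, and in each mutant group 2 did. Cd209a, a marker of monocyte-derived dendritic cells, had 3 counts or fewer in each group. The 6 B lineage markers summed to 35.2 to 46.9 CPM in wild-type and 183 to 287 CPM in mutant libraries. With vehicle they came mainly from Ebf1 in wild-type cells (30.9 CPM) and from Rag1 and Ebf1 in mutant cells (114 and 72.2 CPM). Wild-type and mutant sums were 520 to 617 and 92.8 to 119 CPM for the 5 mast cell and basophil markers. They were 56.9 to 110 and 4.87 to 7.89 CPM for the 6 neutrophil markers, and 24.4 to 41.8 and 3.78 to 5.70 CPM for the 5 erythroid markers. The part of these differences in the receptor results was not tested. In bulk RNA, fewer cells of a type and less RNA per cell cannot be told apart.

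Compared per transcript length within a library, as the deposited TPM (abundance scaled by transcript length and library), Cd14 and Ly96 led in wild-type cells and Tlr2 led in mutant cells with Pam3CSK4 or both agents. With vehicle, wild-type libraries had 1.02 ± 0.183 TPM for Cd14, 0.808 ± 0.251 for Ly96, 0.458 ± 0.0525 for Tlr4, 0.145 ± 0.0173 for Tlr2 and 0.0775 ± 0.015 for Tlr6 (mean ± SD, n = 4). Within each of the 4 libraries Cd14 lay above Ly96, Ly96 above Tlr4, Tlr4 above Tlr2 and Tlr2 above Tlr6, although the ranges of Cd14 and Ly96 overlapped. The remaining members averaged 0.01 TPM or less. In mutant vehicle libraries the order was Ly96 at 0.878 ± 0.124 TPM, Cd14 at 0.593 ± 0.09, Tlr2 at 0.553 ± 0.0932, Tlr6 at 0.26 ± 0.0216, Tlr4 at 0.193 ± 0.0287 and Tlr1 at 0.12 ± 0.0258. Cd14 and Tlr2 overlapped there, and Tlr6 lay above Tlr4 without overlap.

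Tlr2 exceeded Tlr4 per length in all 16 mutant libraries and in 0 of 16 wild-type libraries. The ratio of Tlr2 to Tlr4 TPM had medians of 0.31, 0.29, 0.633 and 0.655 in wild-type cells with vehicle, IFNg, Pam3CSK4 and both, and of 2.76, 1.46, 5.59 and 5.68 in mutant cells. Tlr2 was first of all members in mutant cells with Pam3CSK4 (1.03 ± 0.0983 TPM) and with both agents (1.75 ± 0.392 TPM). Tlr1 exceeded Tlr6 per length only in the 4 mutant libraries with Pam3CSK4, where the ratio ran from 1.19 to 1.48, and in mutant vehicle libraries it ran from 0.321 to 0.652. TPM is not compared between groups here: in wild-type cells Tlr4 averaged 0.458 TPM with vehicle and 0.665 TPM with Pam3CSK4, while its CPM were 5.64 and 5.06.

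The genotype comparison asked how the receptor genes differed between lines with and without the enhancer. Each genotype was 1 line, so loss of the enhancer cannot be told apart from any other difference between the lines. With vehicle, 4 of 8 tested members were higher in mutant cells (Tlr1, Tlr2, Tlr6 and Tlr9) and 2 were lower (Tlr4 and Cd14), against 24.4% of all tested genes higher and 29.3% lower. Tlr1 and Tlr7 passed the filter on low counts only through mutant libraries: 4 libraries at 0.175 CPM or more were needed, and Tlr1 had 1 such wild-type library against 16 mutant ones, and Tlr7 2 against 14. Counts that hold Tlr1 and Tlr7 therefore lean towards higher in mutant cells. Tlr9 had 4 against 14, so its wild-type libraries alone met the need. The 5 members with all 32 libraries past that level were Tlr2 and Tlr6, higher, Tlr4 and Cd14, lower, and Ly96, not called. With IFNg 5 were higher and 2 lower (25.7% and 27.4% of all genes), with Pam3CSK4 4 and 2 (32.1% and 33.5%), and with both agents 5 and 2 (30.5% and 29.7%). Libraries of the genotypes did not overlap for 5, 7, 6 and 7 of the 8 members with vehicle, IFNg, Pam3CSK4 and both, against 43.6%, 47.8%, 61.9% and 54.1% of all tested genes.

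Tlr1, the partner of TLR2 for triacylated lipopeptides (ENSMUSG00000044827.10, chromosome 5, 64924679 to 64933563), was near the detection limit in wild-type cells and plainly present in mutant cells. Wild-type vehicle libraries 1 to 4 had 0.0591, 0.0674, 0 and 0 CPM, and mutant vehicle libraries had 1.09, 0.833, 1.28 and 0.851 CPM. Every mutant library lay above every wild-type one, in the other 3 treatments too. The log2 fold change was 4.87 ± 0.58 with vehicle (95% interval 3.74 to 6.0, edgeR adjusted p = 1.4e-13), 3.84 ± 0.40 with IFNg (adjusted p = 7.4e-13), 4.85 ± 0.32 with Pam3CSK4 (adjusted p = 5.2e-18) and 4.90 ± 0.35 with both (adjusted p = 1.8e-17). The wild-type vehicle group held 6.99 expected counts in all, so the size of that fold rests on few reads. Tlr1 and its neighbour Tlr6 are close paralogs: their expected counts were not whole numbers in 73.3% and 68.8% of the libraries with counts, which shows that some reads were divided between genes. These shares count libraries with any fraction and do not measure how many reads were divided. How far this affects the levels of Tlr1 and Tlr6 was not tested.

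Tlr2 (ENSMUSG00000027995.10, chromosome 3, 83836272 to 83841767), the shared subunit of both lipopeptide receptors, was 3.87-fold higher in mutant vehicle libraries. Wild-type vehicle libraries had 1.34, 1.18, 1.27 and 1.41 CPM and mutant ones 4.98, 4.34, 5.62 and 5.14 CPM, without overlap. The log2 fold change was 1.96 ± 0.12 with vehicle (edgeR adjusted p = 2.5e-16), 1.62 ± 0.12 with IFNg (adjusted p = 2.7e-14), 2.14 ± 0.11 with Pam3CSK4 (adjusted p = 1.2e-18) and 2.25 ± 0.10 with both (adjusted p = 1.2e-19). Tlr6, the partner for diacylated lipopeptides (ENSMUSG00000051498.6, chromosome 5, 64952031 to 64960097), had 0.906, 0.776, 0.881 and 0.786 CPM in wild-type and 2.97, 3.48, 2.58 and 2.73 CPM in mutant vehicle libraries. It too did not overlap, with log2 fold changes of 1.80 ± 0.12, 1.08 ± 0.11, 1.91 ± 0.12 and 1.28 ± 0.11 with vehicle, IFNg, Pam3CSK4 and both (edgeR adjusted p from 1.7e-16 with Pam3CSK4 to 9.2e-11 with IFNg).

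**Figure D1:**
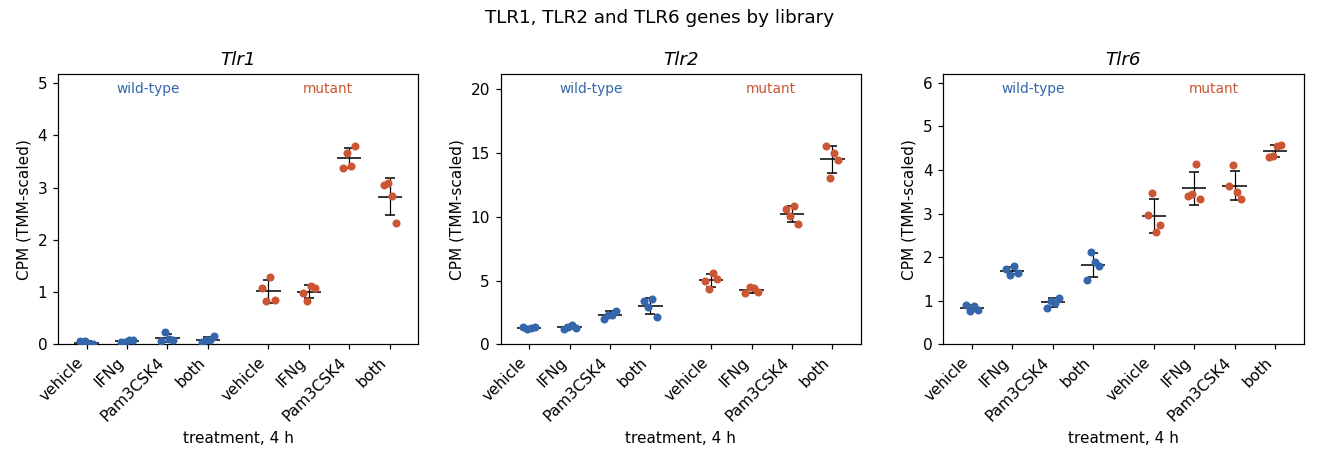
CPM of Tlr1, Tlr2 and Tlr6 in each library (points) by treatment, wild-type in blue and mutant in red, with the group mean and SD (bars, n = 4). Mutant libraries lie above wild-type ones in each treatment, Tlr1 and Tlr2 are highest with Pam3CSK4 or both agents in mutant cells, and wild-type Tlr6 goes from a mean of 0.837 with vehicle to 1.70 CPM with IFNg.

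The Pam3CSK4 comparisons asked how the agonist of TLR1 and TLR2 changed the receptor genes themselves. In wild-type cells 2 members rose (Tlr1 and Tlr2) and in mutant cells 4 rose (Tlr1, Tlr2, Tlr6 and Cd14). Among all genes 10.4% rose and 11.7% fell in wild-type cells, and 11.5% rose and 12.8% fell in mutant cells. With the structural share added as a covariate the wild-type share dropped to 1.18% of all genes, 157 higher and 19 lower, and without wild-type vehicle libraries 1 and 4 it was 4.87%, 498 higher and 226 lower; of the members Tlr2 was called in each. No overlap with vehicle was seen for 2 of 8 members in wild-type and 2 of 8 in mutant cells, where 18.7% and 26.5% of all genes did not overlap. The members' median log2 fold change was 0.26 in wild-type and 0.31 in mutant cells, and that of all genes was 0.00 in each.

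Tlr2 rose with Pam3CSK4 in both lines. Wild-type libraries had 2.00, 2.30, 2.35 and 2.66 CPM, all above the 1.41 CPM of the highest vehicle library, which gave a log2 fold change of 0.84 ± 0.13 (edgeR adjusted p = 1.4e-05). Mutant libraries had 10.6, 10.1, 10.9 and 9.43 CPM, all above the 5.62 CPM of the highest vehicle library, which gave 1.03 ± 0.10 (edgeR adjusted p = 5.2e-10). The difference between the genotypes' responses was 0.18 ± 0.16 (95% interval -0.13 to 0.50, edgeR adjusted p = 0.44). Both calls held under every alternative, with the structural share added as a covariate among them.

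Tlr1 went from a mean of 1.01 to 3.56 CPM with Pam3CSK4 in mutant cells, where the 4 libraries had 3.38, 3.67, 3.42 and 3.79 CPM (log2 fold change 1.80 ± 0.19, edgeR adjusted p = 2.2e-09). All 4 lay above the 1.28 CPM of the highest mutant vehicle library. Wild-type libraries had 0.0593, 0.237, 0.109 and 0.091 CPM, which overlapped with vehicle. Their log2 fold change of 1.82 ± 0.63 passed (edgeR adjusted p = 0.016), but the call ended without wild-type Pam3CSK4 library 2 (adjusted p = 0.11) and without wild-type vehicle library 3 (0.059) or 4 (0.06). It also ended with the structural share added as a covariate (0.25), in a fit of these 2 groups alone (0.15) and without wild-type vehicle libraries 1 and 4 together (0.097).

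Tlr6 passed with Pam3CSK4 in mutant cells only narrowly. Wild-type libraries had 0.845, 1.00, 0.945 and 1.07 CPM (log2 fold change 0.20 ± 0.13, edgeR adjusted p = 0.36). Mutant libraries had 3.62, 4.11, 3.49 and 3.34 CPM, which overlapped with vehicle, and their change of 0.31 ± 0.10 passed (edgeR adjusted p = 0.023). That call ended without mutant vehicle library 3 (adjusted p = 0.1) or 4 (0.079), without mutant Pam3CSK4 library 2 (0.1) and with no filter on low counts (0.099). In the difference of the Pam3CSK4 response between genotypes, 0 of 8 members passed in edgeR, where 26.6% of all genes did; 0 had an unadjusted p under 0.05, and DESeq2 also called 0.

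The IFNg comparisons asked what interferon gamma did to the same genes. In wild-type cells 1 member rose (Tlr6) and in mutant cells 3 rose (Tlr4, Tlr6 and Tlr7). Among all genes 17.8% rose and 17.6% fell in wild-type cells, and 18.3% rose and 14.9% fell in mutant cells. Members without overlap numbered 2 of 8 in each line, where 27.8% of all genes in wild-type and 32.4% in mutant cells did not overlap. Median changes were 0.21 in wild-type and -0.03 in mutant members, and -0.01 over all genes in each line.

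Tlr6 rose with IFNg, 2.02-fold in the mean of wild-type cells and 1.22-fold in that of mutant cells. Wild-type libraries had 1.74, 1.60, 1.80 and 1.65 CPM with IFNg, all above the 0.906 CPM of the highest vehicle library (log2 fold change 1.01 ± 0.13, edgeR adjusted p = 5.4e-08). Mutant libraries had 3.40, 3.45, 4.13 and 3.32 CPM and overlapped with vehicle, with a change of 0.29 ± 0.10 (edgeR adjusted p = 0.026). The response was smaller in mutant cells by a log2 difference of -0.72 ± 0.16 (95% interval -1.04 to -0.40, edgeR adjusted p = 0.012), a comparison in which 1.65% of all genes passed. The difference held under all 23 alternatives, with values from -0.80 to -0.64, whereas the mutant response alone lost its call without mutant vehicle library 3 (adjusted p = 0.11) or 4 (0.08), without mutant IFNg library 3 (0.14), with no filter on low counts (0.12) and in a fit of these 2 groups alone (0.067).

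Tlr1 and Tlr2 were not called with IFNg in either line. Wild-type Tlr2 libraries had 1.23, 1.41, 1.56 and 1.29 CPM (log2 fold change 0.09 ± 0.13, edgeR adjusted p = 0.64). Mutant ones had 4.00, 4.50, 4.40 and 4.08 CPM (log2 fold change -0.24 ± 0.10, edgeR adjusted p = 0.07), and this change passed without mutant vehicle library 2 (adjusted p = 0.032) and in DESeq2 (0.034). Tlr1 had 0.0425, 0.0527, 0.0883 and 0.0796 CPM in wild-type and 0.983, 0.841, 1.13 and 1.08 CPM in mutant libraries with IFNg, at log2 fold changes of 1.02 ± 0.67 (edgeR adjusted p = 0.2) and -0.01 ± 0.21 (adjusted p = 0.99).

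The combined treatment asked whether both agents together gave more than the sum of their single responses on the log2 scale. In wild-type cells 4 members rose (Tlr1, Tlr2, Tlr4 and Tlr6), where 21.2% of all genes rose and 22.4% fell. In mutant cells 6 rose (Tlr1, Tlr2, Tlr4, Tlr6, Tlr7 and Tlr9) and 1 fell (Ly96), against 23.7% and 20.1%. With each library left out in turn, 2 to 4 members were called in wild-type cells and 5 to 6 in mutant cells. The mutant calls of Tlr9 and Ly96 ended under 12 and 7 of 14 alternatives. Libraries with both agents and with vehicle did not overlap for 3 of 8 members in wild-type cells (34.5% of all genes) and 6 of 8 in mutant cells (39.5%). Member medians were 0.52 and 0.69, and all-gene medians -0.03 and -0.01.

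Tlr2 was highest with both agents. Wild-type libraries had 3.39, 2.93, 3.59 and 2.19 CPM (log2 fold change over vehicle 1.23 ± 0.12, edgeR adjusted p = 2.9e-10), and wild-type library 4 lay within the range with Pam3CSK4 alone. Mutant libraries had 15.5, 13.1, 15 and 14.4 CPM (1.53 ± 0.10, edgeR adjusted p = 5.2e-15), all above the 10.9 CPM of the highest library with Pam3CSK4 alone. In mutant cells the combined response exceeded the sum of the single ones by 0.74 ± 0.14 on the log2 scale (95% interval 0.46 to 1.02, edgeR adjusted p = 0.0018), where 1.86% of all genes departed from the sum. In wild-type cells the departure was 0.30 ± 0.17 (edgeR adjusted p = 0.35), and the difference between the genotypes' departures was 0.44 ± 0.22 (95% interval 0.00 to 0.89, edgeR adjusted p = 0.37), so the departure was not shown to differ between the lines. The mutant call held under all 22 alternatives, at 0.69 to 0.81.

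Tlr2 was the 1 member with a called departure in mutant cells. In wild-type cells 0 of 8 members departed from the sum in edgeR (0.592% of all genes did), 0 had an unadjusted p under 0.05 and DESeq2 called 0. The genotype difference of the departure was called for 0 of 8 members in edgeR (0.921% of all genes) and in DESeq2, and 1 had an unadjusted p under 0.05 (Tlr4, -0.44 ± 0.21, adjusted p = 0.34).

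Tlr1 with both agents had 3.06, 3.09, 2.83 and 2.33 CPM in mutant libraries (log2 fold change over vehicle 1.48 ± 0.19, edgeR adjusted p = 4.9e-08). These lay below the 3.38 CPM of the lowest mutant library with Pam3CSK4 alone. Wild-type libraries had 0.0516, 0.0857, 0.0872 and 0.155 CPM (log2 fold change 1.45 ± 0.65, edgeR adjusted p = 0.042) and overlapped with vehicle. The wild-type call ended under 9 of 15 alternatives: without wild-type vehicle library 3 (adjusted p = 0.17) or 4 (0.11), without the wild-type library with both agents numbered 2 (0.055), 3 (0.058) or 4 (0.15), with a replicate block (0.052), with the structural share as a covariate (0.15), without wild-type vehicle libraries 1 and 4 (0.098) and in a fit of these 2 groups alone (0.16).

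Tlr6 with both agents had 1.48, 2.12, 1.89 and 1.80 CPM in wild-type libraries (log2 fold change 1.12 ± 0.13, edgeR adjusted p = 3.5e-09) and 4.30, 4.32, 4.54 and 4.57 CPM in mutant libraries (0.60 ± 0.10, edgeR adjusted p = 8.1e-06). Neither group overlapped with its vehicle group. Means went from 0.837 to 1.82 CPM in wild-type and from 2.94 to 4.43 CPM in mutant cells, so in CPM the mutant rise was the larger. The test compared the responses on the log2 scale. The combined response was smaller in mutant cells by a log2 difference of -0.52 ± 0.16 (95% interval -0.84 to -0.21, edgeR adjusted p = 0.023). Of all genes 15.8% had a called difference, mutant minus wild-type, which was positive for 1308 and negative for 1039. Without wild-type vehicle libraries 1 and 4 these numbers were 667 and 1214. The Tlr6 call ended without the wild-type library 2 with both agents (adjusted p = 0.061), without mutant vehicle library 2 (0.056), with no filter on low counts (0.074) and without the 4 other groups in the fit (0.054).

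**Figure D2:**
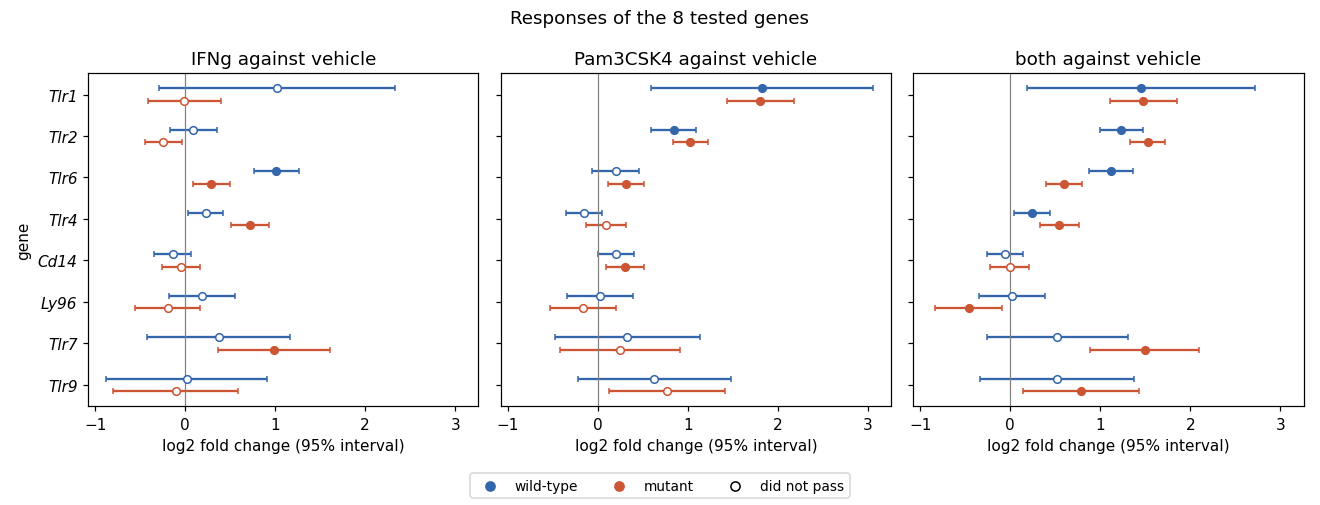
Log2 fold change (x axis, with its 95% interval as a bar) of each tested gene (y axis) against vehicle for IFNg, Pam3CSK4 and both agents, wild-type in blue and mutant in red, with open circles where the edgeR test did not pass. Tlr2 lies to the right of 0 with Pam3CSK4 and with both agents in each line, and Tlr6 with IFNg lies at 1.01 in wild-type against 0.29 in mutant cells.

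Tlr4 and Cd14 went against the lipopeptide receptors and were lower in mutant cells. Tlr4, the signalling receptor for lipopolysaccharide (ENSMUSG00000039005.13, chromosome 4, 66827584 to 66930284), had 5.99, 4.69, 5.82 and 6.05 CPM in wild-type and 2.76, 2.76, 1.95 and 2.33 CPM in mutant vehicle libraries. The groups did not overlap, here or in the other 3 treatments. The log2 fold change was -1.20 ± 0.11 with vehicle (edgeR adjusted p = 9.1e-12), -0.71 ± 0.10 with IFNg (adjusted p = 3.4e-07), -0.96 ± 0.11 with Pam3CSK4 (adjusted p = 1.6e-09) and -0.90 ± 0.10 with both (adjusted p = 2.7e-09).

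Tlr4 rose with IFNg in mutant cells. Mutant libraries had 3.63, 4.54, 4.39 and 3.53 CPM, all above the 2.76 CPM of the highest vehicle library (log2 fold change 0.72 ± 0.11, edgeR adjusted p = 2.3e-06). Wild-type libraries had 6.29, 6.73, 7.21 and 6.09 CPM, which lay just above the 6.05 CPM of the highest vehicle library (0.23 ± 0.10, edgeR adjusted p = 0.08); this change passed with the structural share as a covariate (0.45, adjusted p = 0.0046) and without wild-type vehicle libraries 1 and 4 (0.33, adjusted p = 0.049). The difference between genotypes, 0.49 ± 0.15, missed the threshold in edgeR (adjusted p = 0.087) and passed in DESeq2 (adjusted p = 0.04) and without wild-type vehicle library 2 (0.026). With Pam3CSK4, Tlr4 had 5.06, 5.51, 4.64 and 5.02 CPM in wild-type and 2.34, 2.53, 2.67 and 2.88 CPM in mutant libraries, and neither change passed (log2 fold changes -0.15 ± 0.10, edgeR adjusted p = 0.3, and 0.09 ± 0.11, adjusted p = 0.64).

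With both agents Tlr4 had 3.53, 3.20, 4.08 and 3.45 CPM in mutant libraries (log2 fold change 0.55 ± 0.11, edgeR adjusted p = 0.0001), again without overlap with vehicle. Wild-type libraries had 6.17, 7.21, 6.66 and 6.61 CPM (0.24 ± 0.10, edgeR adjusted p = 0.049). The wild-type call ended under 9 of 15 alternatives: without wild-type vehicle library 2 (adjusted p = 0.21) or 3 (0.053), without the wild-type library with both agents numbered 2 (0.14), 3 (0.077) or 4 (0.073), and with RLE size factors (0.054), no filter (0.051), a replicate block (0.061) or these 2 groups alone (0.059).

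Cd14 (ENSMUSG00000051439.7), the anchored protein that hands lipopolysaccharide to TLR4 and MD-2 and also aids TLR2, had 4.63, 4.67, 4.12 and 4.67 CPM in wild-type and 2.74, 2.86, 3.34 and 2.10 CPM in mutant vehicle libraries. It stayed near 60% of the wild-type level: the ratio of mutant to wild-type means was 0.611, 0.651, 0.651 and 0.636 with vehicle, IFNg, Pam3CSK4 and both, and libraries did not overlap in any treatment. The log2 fold change with vehicle was -0.71 ± 0.11 (edgeR adjusted p = 5.4e-07). Of its 6 treatment comparisons, 1 passed. With Pam3CSK4 wild-type libraries had 4.70, 5.26, 5.76 and 5.07 CPM (log2 fold change 0.20 ± 0.10, edgeR adjusted p = 0.16) and mutant libraries 3.61, 2.97, 3.54 and 3.43 CPM (0.30 ± 0.11, edgeR adjusted p = 0.04).

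The mutant Cd14 call ended under 9 of 14 alternatives: without mutant vehicle library 1 (adjusted p = 0.072), 2 (0.053) or 4 (0.23), without mutant Pam3CSK4 library 1 (0.1), 3 (0.1) or 4 (0.077), with no filter (0.085), with the structural share as a covariate (0.051) and in a fit of these 2 groups alone (0.084). With IFNg, Cd14 had 4.27, 4.24, 4.06 and 3.85 CPM in wild-type and 2.97, 2.56, 2.54 and 2.62 CPM in mutant libraries. With both agents it had 4.30, 4.46, 4.54 and 3.99 CPM and 2.98, 2.64, 2.26 and 3.11 CPM. None of these 4 changes passed against vehicle, with log2 fold changes from -0.14 to -0.01.

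Ly96 (ENSMUSG00000025779.10, chromosome 1, 16688051 to 16709611), which encodes MD-2, the part of the TLR4 receptor that holds lipopolysaccharide, was not called between the lines in any treatment. It had 1.14, 1.10, 1.04 and 0.739 CPM in wild-type and 1.33, 1.05, 1.13 and 1.08 CPM in mutant vehicle libraries, which overlapped. The log2 fold change between genotypes was 0.18 ± 0.19 with vehicle (95% interval -0.18 to 0.55, edgeR adjusted p = 0.44), and it was not called with IFNg (-0.20 ± 0.18), Pam3CSK4 (0.00 ± 0.19) or both (-0.30 ± 0.19, which passed without the mutant library 2 with both agents, at -0.51 and adjusted p = 0.025). Group means over the 8 groups lay between 0.813 and 1.15 CPM. With IFNg wild-type libraries had 0.977, 1.37, 1.22 and 1.04 CPM and mutant ones 1.02, 0.967, 0.955 and 1.08 CPM. With Pam3CSK4 they had 1.25, 0.986, 0.818 and 1.05 CPM and 0.780, 1.12, 1.17 and 1.06 CPM, again with overlap.

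Ly96 was called against vehicle in 1 of 6 treatment comparisons. Mutant libraries with both agents had 0.984, 1.15, 0.589 and 0.526 CPM, which overlapped with vehicle (log2 fold change -0.46 ± 0.19, edgeR adjusted p = 0.044). Libraries 3 and 4 were low, and without either the call ended (adjusted p = 0.17 and 0.18), as it did without mutant vehicle library 1 (0.14), 3 (0.066) or 4 (0.052), with no filter (0.061) and in a fit of these 2 groups alone (0.11).

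**Figure D3:**
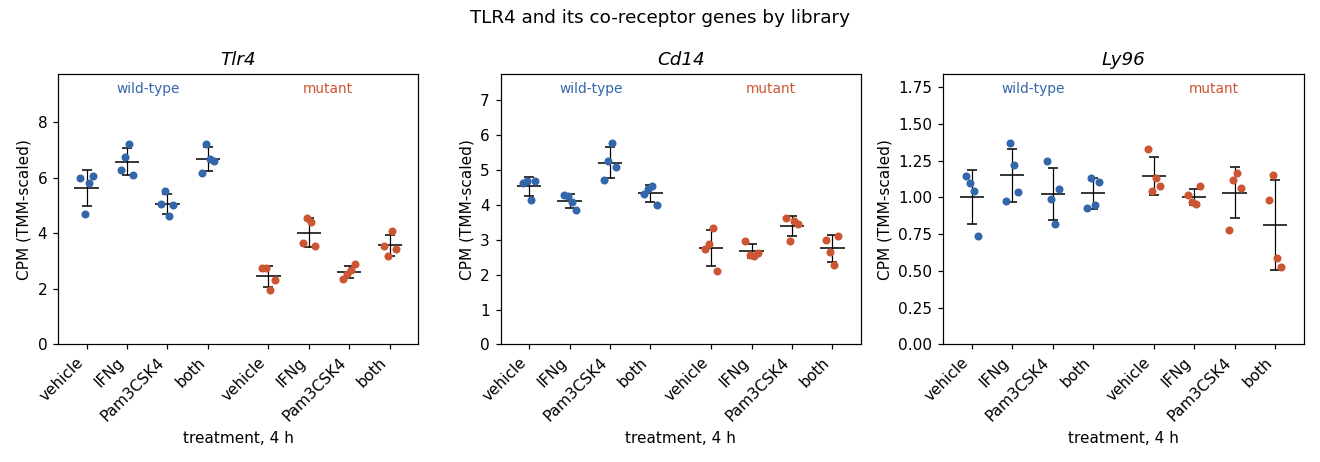
CPM of Tlr4, Cd14 and Ly96 in each library (points) by treatment, wild-type in blue and mutant in red, with the group mean and SD (bars, n = 4). Mutant libraries lie below wild-type ones for Tlr4 and Cd14 in each treatment, and overlap with them for Ly96.

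The endosomal receptors were low in every group. Tlr7 (ENSMUSG00000044583.13, on the X chromosome), a receptor for single-stranded RNA, had 3 to 30 counts and 0.0506 to 0.594 CPM per library. With vehicle it had 0.0985, 0.0506, 0.0801 and 0.191 CPM in wild-type and 0.0649, 0.192, 0.250 and 0.193 CPM in mutant libraries, which overlapped (log2 fold change 0.79 ± 0.39, edgeR adjusted p = 0.08). This difference passed without wild-type vehicle library 4 (1.18, adjusted p = 0.016), without mutant vehicle library 1 (1.08, adjusted p = 0.013) and without wild-type vehicle libraries 1 and 4 (1.40, adjusted p = 0.015).

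Tlr7 was highest in mutant cells given both agents. Mutant libraries with IFNg had 0.439, 0.315, 0.328 and 0.302 CPM and those with both agents 0.447, 0.455, 0.494 and 0.594 CPM, all above the 0.250 CPM of the highest mutant vehicle library. Against vehicle the log2 fold changes were 0.99 ± 0.32 (edgeR adjusted p = 0.013) and 1.49 ± 0.31 (adjusted p = 9.1e-05). The call with IFNg ended without mutant vehicle library 1 (adjusted p = 0.078), without mutant IFNg library 1 (0.053) and with no filter (0.068); the call with both agents held under every alternative. In wild-type cells Tlr7 averaged 0.129 CPM with IFNg and 0.144 CPM with both (log2 fold changes 0.37 ± 0.41, edgeR adjusted p = 0.51, and 0.52 ± 0.40, adjusted p = 0.3).

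Mutant cells had more Tlr7 than wild-type cells with IFNg (log2 fold change 1.41 ± 0.33, edgeR adjusted p = 0.00036) and with both agents (1.76 ± 0.32, adjusted p = 7.3e-06), without overlap. With Pam3CSK4 mutant libraries had 0.195, 0.126, 0.296 and 0.199 CPM and wild-type ones 0.104, 0.0913, 0.145 and 0.164 CPM, with overlap. That change of 0.71 ± 0.36 did not pass (adjusted p = 0.077) but did without mutant Pam3CSK4 library 2 (0.87, adjusted p = 0.038). The genotype difference of the combined response was 0.97 ± 0.51 (95% interval -0.02 to 1.96, edgeR adjusted p = 0.2). Xist, the RNA that coats an inactive X chromosome, had 0 to 5 counts in wild-type libraries and 357 to 575 CPM in mutant ones. The genotype labels do not name this further difference between the lines. Tlr7 and Tlr13 lie on the X chromosome. The part of this difference in the levels of these or the other members was not tested, and it cannot be told apart from that of the enhancer.

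Tlr9 (ENSMUSG00000045322.10, chromosome 9, 106222598 to 106226883), the receptor for CpG DNA, had 2 to 26 counts per library. With vehicle it had 0.0591, 0.0674, 0.192 and 0.0477 CPM in wild-type and 0.114, 0.192, 0.300 and 0.241 CPM in mutant libraries. With Pam3CSK4 wild-type libraries had 0.163, 0.219, 0.127 and 0.091 CPM and mutant ones 0.357, 0.443, 0.401 and 0.244 CPM. The highest wild-type library lay below the lowest mutant one there, and with vehicle the groups overlapped. Mutant groups averaged 0.196 to 0.368 CPM and wild-type groups 0.0916 to 0.150 CPM. The log2 fold change between genotypes was 1.26 ± 0.35 with Pam3CSK4 (edgeR adjusted p = 0.0017) and 1.39 ± 0.35 with both agents (adjusted p = 0.00071), without overlap, and both calls held under every alternative.

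With vehicle the Tlr9 difference was 1.12 ± 0.41 (edgeR adjusted p = 0.017), a call that ended without wild-type vehicle library 1 (adjusted p = 0.057), 2 (0.06) or 4 (0.057), without mutant vehicle library 3 (0.083), without wild-type vehicle libraries 1 and 4 (0.19), with no filter (0.054) and in a fit of these 2 groups alone (0.076). With IFNg it was 1.00 ± 0.40 (edgeR adjusted p = 0.032), lost without wild-type IFNg library 3 (0.15), without mutant IFNg library 2 (0.057) or 3 (0.086), with no filter (0.1) and in a fit of these 2 groups alone (0.055). Of the 6 changes against vehicle only that of mutant cells with both agents passed (0.79 ± 0.33, edgeR adjusted p = 0.047), and it was lost under 12 of 14 alternatives, with adjusted p up to 0.18. These included leaving out mutant vehicle library 1 (0.18), 2 (0.089) or 4 (0.056), or the mutant library with both agents numbered 1 (0.07), 2 (0.092) or 4 (0.091). Without wild-type vehicle library 3, Tlr9 also passed in wild-type cells with Pam3CSK4 (1.32, adjusted p = 0.036) and with both agents (1.21, adjusted p = 0.041), and without mutant vehicle library 3 in mutant cells with Pam3CSK4 (0.99, adjusted p = 0.047).

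Tlr3, the receptor for double-stranded RNA, and Tlr13, a receptor for bacterial ribosomal RNA, were too low to test. Tlr3 had 22 counts in all, in 15 of 32 libraries and at most 3 in any library, 12 of them in wild-type and 10 in mutant cells; an antisense gene, Gm45542, overlaps it. Tlr13 had 54 counts in 22 of 32 libraries, 15 in wild-type and 39 in mutant cells, with at most 10 in any library. The highest group means were 0.0243 CPM for Tlr3 and 0.0743 CPM for Tlr13, both in mutant vehicle libraries. A gene at 3 counts over all libraries would stand at 0.00164 CPM, which covers counting error only.

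**Figure D4:**
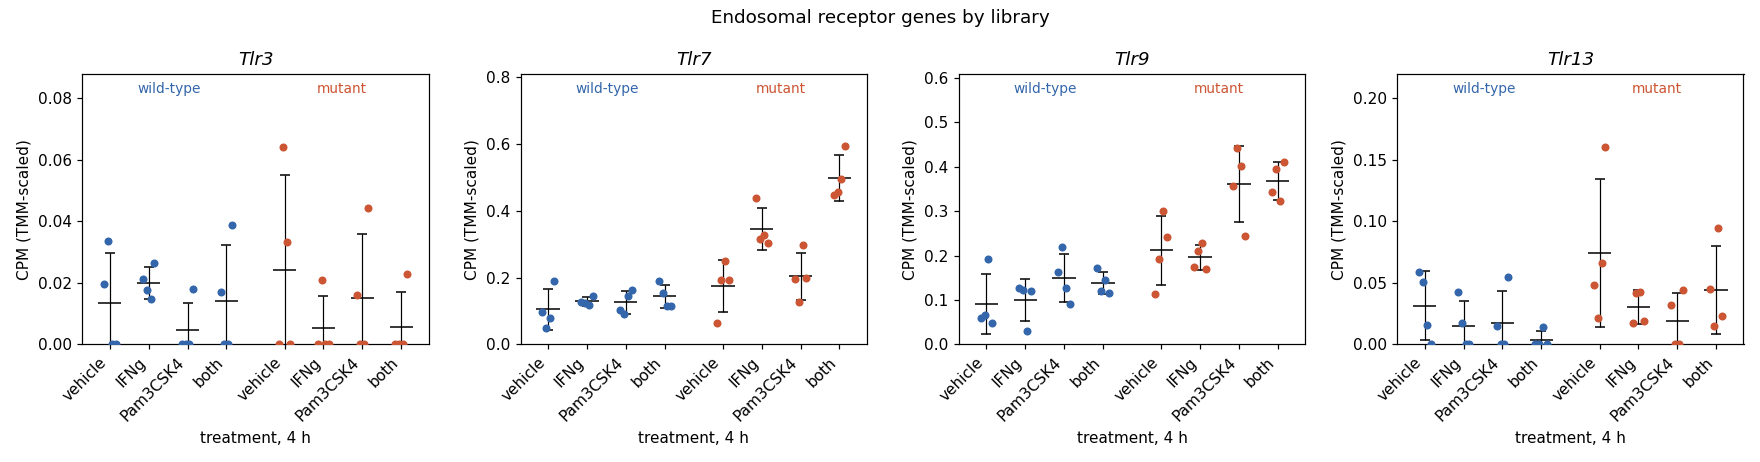
CPM of Tlr3, Tlr7, Tlr9 and Tlr13 in each library (points) by treatment, wild-type in blue and mutant in red, with the group mean and SD (bars, n = 4). Tlr7 in mutant cells reaches 0.439 CPM with IFNg and 0.594 CPM with both agents, Tlr9 averages 0.361 and 0.368 CPM in mutant cells with Pam3CSK4 and both, and Tlr3 and Tlr13 stay at 0.161 CPM or less.

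The 43 other genes of the receptor pathway, in 7 lists, showed changes on both sides. Of the 38 tested, 15 (39.5%) had higher and 15 (39.5%) lower levels in mutant cells with vehicle, against 24.4% and 29.3% of all tested genes. Lgmn and Ly86, among those higher, passed the filter on low counts only through mutant libraries, so the count leans towards higher in mutant cells. With both agents 13 (34.2%) rose and 6 (15.8%) fell in wild-type cells, against 21.2% and 22.4% of all genes, and 14 (36.8%) rose and 9 (23.7%) fell in mutant cells, against 23.7% and 20.1%. Among the other receptors, Tlr12, a sensor of the protozoan protein profilin, with vehicle averaged 0.213 CPM in wild-type and 0.646 CPM in mutant cells (log2 fold change 1.59 ± 0.30, edgeR adjusted p = 1.7e-05) and fell by 2.13 ± 0.47 (wild-type) and 2.13 ± 0.32 (mutant) on the log2 scale with both agents. Tlr5, the flagellin receptor, was lower in mutant cells with vehicle (-0.95 ± 0.32, edgeR adjusted p = 0.012) but not with IFNg (0.01 ± 0.32, adjusted p = 0.98), and its wild-type vehicle libraries ran from 0.371 to 1.06 CPM. It fell with both agents in mutant cells (-1.11 ± 0.40, adjusted p = 0.017). Tlr8 had 1 count in the 32 libraries and Tlr11 had 0.

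Of the 6 accessory genes 5 were tested and with vehicle 2 were higher and 3 lower in mutant cells (24.4% and 29.3% of all genes). Cd180, a receptor relative that binds MD-1 and restrains or aids TLR4 signalling according to the cell type, averaged 0.256 CPM in wild-type and 7.07 CPM in mutant cells (log2 fold change 4.77 ± 0.19, edgeR adjusted p = 6.7e-24). Ly86, which encodes MD-1, went the same way from 0.0822 to 0.535 CPM (2.79 ± 0.50, edgeR adjusted p = 1.8e-06). Its wild-type group means were 0.0822 CPM or less, under the 0.175 CPM of the filter, so it was tested only because of mutant libraries. Lbp, the serum protein that loads lipopolysaccharide onto CD14, was lower (-1.11 ± 0.06, edgeR adjusted p = 1.6e-18), as were the integrin genes Itgam (-0.71 ± 0.08) and Itgb2 (-0.41 ± 0.04). Cd180 fell with both agents in wild-type (-0.92 ± 0.28) and mutant cells (-0.81 ± 0.11), and Itgb2 fell in each line (-0.29 ± 0.04 and -0.34 ± 0.04).

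Of 8 folding and trafficking genes 5 were higher in mutant cells with vehicle (24.4% of all genes) and 3 were not called, with a median log2 fold change of 0.14 over the 8. The 5 included Unc93b1, the chaperone that carries endosomal receptors from the endoplasmic reticulum, at means of 17.3 and 25.1 CPM (log2 fold change 0.53 ± 0.07, edgeR adjusted p = 4.5e-08). Slc15a3, an endosomal transporter of bacterial peptides, went from 0.298 to 2.75 CPM with both agents in wild-type cells (3.19 ± 0.20) and from 0.949 to 15.7 CPM in mutant cells (4.06 ± 0.14), and the responses differed by 0.86 ± 0.25 (edgeR adjusted p = 0.018). Cnpy4 fell with both agents in mutant cells, from a mean of 28.1 to 23.1 CPM. Of 4 tested endosomal proteases, which cut these receptors into their active form, Lgmn (6.45 ± 0.38) and Ctss (3.08 ± 0.32) were higher in mutant vehicle libraries and Ctsl (-0.62 ± 0.05) and Ctsb (-0.18 ± 0.04) were lower. Lgmn averaged 0.0579 CPM in wild-type and 5.08 CPM in mutant cells. Its wild-type group means were 0.094 CPM or less, under the 0.175 CPM of the filter. Lgmn was thus tested only because of mutant libraries, which leans its call towards higher in mutant cells.

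The adaptor gene Myd88 rose with both agents in each line, from 27.0 to 49.5 CPM in wild-type (log2 fold change 0.87 ± 0.04, edgeR adjusted p = 1.5e-18) and from 25.7 to 50.3 CPM in mutant cells (0.97 ± 0.04, adjusted p = 3.8e-20), with a difference of 0.10 ± 0.06 (adjusted p = 0.28). Of the other 3 tested adaptors, Tirap, which brings MyD88 to TLR2 and TLR4, was lower with vehicle in mutant cells (-0.37 ± 0.05), Ticam1, which encodes TRIF, was lower (-0.28 ± 0.08), and Ticam2, which links TLR4 to TRIF, was higher (0.53 ± 0.05). Among 9 kinases and TRAFs, 2 were higher and 4 lower in mutant cells with vehicle, against 24.4% and 29.3% of all genes. The 2 were Irak4 (means of 10.1 CPM in wild-type and 13.4 CPM in mutant cells) and Traf6 (46.9 and 50.6 CPM). With both agents 5 of the 9 rose and 1 fell (Tab1, -0.13 ± 0.05) in wild-type cells, and 5 rose in mutant cells, against 21.2% and 23.7% of all genes that rose. Traf3 rose from 52.6 to 64.5 CPM in wild-type and from 45.7 to 63.7 CPM in mutant cells. Irak2, a kinase that sustains NF-kB signalling, rose from 3.22 to 5.75 CPM in wild-type (0.84 ± 0.09) and from 1.86 to 11.4 CPM in mutant cells (2.62 ± 0.10), and these responses differed by 1.79 ± 0.13 (edgeR adjusted p = 1.9e-12). Among the 6 inhibitors, 2 were higher and 3 lower in mutant cells with vehicle, against 24.4% and 29.3% of all genes. Means in wild-type and mutant cells were 41.9 and 61.9 CPM for Sigirr, 50.5 and 54.2 for Rnf216, and 16.3 and 10.1 for Irak3. Tnfaip3, which encodes A20, and Nfkbia rose more in mutant cells with both agents (differences 2.48 ± 0.13 and 0.98 ± 0.09). Tnfaip3 went from 2.09 to 14.1 CPM in wild-type cells and from a lower start, 1.02 CPM, to 38.4 CPM in mutant cells. Sigirr, a decoy-like receptor that dampens the pathway, fell with both agents only in the mutant comparison (-0.41 ± 0.04, against -0.04 ± 0.04 in wild-type cells, edgeR adjusted p = 5.2e-05 for the difference).

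Genes whose pattern over the 8 group means was most like a member were listed by Pearson's r of log2 CPM, as a description; the groups share libraries' genotype and depth, and many genes follow genotype. Those nearest to Tlr1 were Tcf4, Ext1 and Prodh (r from 0.993 to 0.994), to Tlr2 Intu, Lpar1 and Snx18 (0.976 to 0.982), to Tlr6 Itprid2, Cbx1 and Ppa2 (0.988 to 0.994), and to Tlr4 Rab21, Ccdc116 and Apoe (0.991 for each). Cd14 was most like Ranbp10, Ikzf2 and Mocs1 (0.985 to 0.991), Tlr7 most like Atg4b, Ccl2 and Alkbh3 (0.971 to 0.978), and Tlr9 most like Snx18, Ralgds and Lpar1 (0.985 to 0.989). Ly96 had the weakest matches, Mmd, Pcgf1 and Pms2 (0.868 to 0.953). Snx18 and Lpar1 were on the lists of both Tlr2 and Tlr9.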

How the data were processed

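RNA was measured in 32 libraries. Per the submitters' processing notes, the authors aligned reads with STAR 2.5.2b to mm10 and quantified genes with RSEM 1.3.0, which divides shared reads between genes; the annotation release is not given in the sources used here. Expected counts and TPM are the deposited units, per the file headers. Of non-zero values 11.072% were not whole (tolerance 0.001), and expected counts were rounded before testing. Of 55487 identifiers 55394 matched GENCODE vM21, the source of symbols and mm10 coordinates, and 93 did not.

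Computed here: filterByExpr kept 14869 genes and removed 40618; TMM; edgeR quasi-likelihood tests over all 32 libraries with 1 mean per group (24 residual degrees of freedom, common biological coefficient of variation 7.224%), in 16 contrasts, each adjusted over all tested genes. The deposited TPM served only to order genes within a library. Intervals are 95% from the fitted SE. The script was tested on simulated data.

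Members, gene lists, motifs and tests were chosen with earlier results of these data known. All members were named. In each pathway list the genes with the 2 largest called rises and falls were named. The comparisons used were mutant against wild-type vehicle and both agents against vehicle. Such a gene was not described in every comparison where it ranked. In addition, the 3 genes with the highest r at 1 CPM or more in some group were named for each tested member. The genotype difference of the departure from the sum was added after the data were seen. Alternatives were RLE size factors, no filter, a replicate block, the structural share as a covariate, only the groups compared, DESeq2, leaving out wild-type vehicle libraries 1 and 4, and each library in turn. Libraries of a group differed by more than sampling noise. Tests ran in R 4.3.3 with DESeq2 1.42.0, edgeR 4.0.16 and limma 3.58.1, and summaries and plots in Python 3.11.15 with scipy 1.17.1, pandas 2.3.3, matplotlib 3.10.9 and numpy 2.4.6.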

Additional observations from a re-analysis of the deposited data

Results flagged for a closer look

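Among 64 sets of 4 libraries (8 members in 8 groups), 4 held a library whose gap to its nearest neighbour was over 0.829 of the group's range, and chance picks out about 5% of such groups. Tlr6 in mutant cells with IFNg had 1 library at 4.1334 CPM, above the others. Cd14 in wild-type vehicle libraries had 1 at 4.1186 CPM, below the others. Tlr9 had 1 wild-type vehicle library at 0.19231 CPM, above the others, and 1 wild-type IFNg library at 0.02943 CPM, below the others.

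The Tlr6 response to IFNg differed between the genotypes, smaller in mutant cells by a log2 difference of -0.7218 (edgeR adjusted p = 0.012). The Tlr6 response to both agents also differed, by -0.5248 (edgeR adjusted p = 0.023). Both comparisons share the vehicle libraries.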

How the results depend on the processing

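Of 50 member calls in 16 comparisons, 38 held under every alternative, 12 ended under 1 or more, and no direction of a called member turned. With the structural share added as a covariate, called genes numbered 2800 for IFNg, 176 for Pam3CSK4 and 3643 for both agents in wild-type cells, 42 and 422 for the wild-type and mutant departures, and 1214, 1380 and 77 for the genotype differences of the Pam3CSK4 response, the combined response and the departure; members called were 2 for IFNg and 1 for Pam3CSK4 in wild-type cells. Without wild-type vehicle libraries 1 and 4, called genes were 724 for wild-type Pam3CSK4, 22 for the wild-type departure, 2545 for the difference of the Pam3CSK4 response and 51 for that of the departure, with 2 members for wild-type IFNg and 1 for wild-type Pam3CSK4. With only the groups compared, they were 1971 for wild-type Pam3CSK4, 135 for the wild-type departure and 128 for the difference of the IFNg response, with 1 member for wild-type Pam3CSK4, 2 for wild-type both and 0 for the difference of the combined response. With no filter the wild-type departure had 172 genes, and members called were 0 for the difference of the combined response, 1 for mutant IFNg and 2 for mutant Pam3CSK4. DESeq2 called 501 genes for the wild-type departure, 400 for the difference of the IFNg response (2 members) and 330 for that of the departure. The share of called genes that was higher moved by over 10 percentage points for wild-type Pam3CSK4 (47% to 89.2% with the covariate and 68.8% without the 2 vehicle libraries) and, without those libraries, for the differences of the combined (55.7% to 35.5%) and the IFNg response (50.2% to 39.6%). It also moved for the wild-type departure (58% to between 68.1% and 86.4% under 4 alternatives) and, in DESeq2, for the difference of the departure (80.3% to 60.9%). The cause of these shifts was not tested.

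Leaving out each library in turn gave 2059 to 4105 called genes for wild-type Pam3CSK4, 44 to 1158 for the wild-type departure, 136 to 378 for the difference of the IFNg response and 50 to 284 for that of the departure. Members called ran from 1 to 2 for wild-type Pam3CSK4, 2 to 4 for wild-type both, 1 to 2 for the difference of the IFNg response, 0 to 1 for that of the combined response, and 2 to 4 for mutant IFNg and for mutant Pam3CSK4. For mutant cells with both agents they ran from 5 to 6, below the 7 called with all libraries.

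A replicate block left 2 members called for both agents in wild-type cells. Libraries with the same number did not deviate together in the median (r 0.009 over 112 pairs, against -0.003 over 336 pairs with other numbers). Single pairs ran from -0.237 to 0.227 and from -0.247 to 0.271. Whether the numbers mark shared cultures or batches is not in the labels, and a small shared effect could go unseen here. Few reads limit Tlr1 in wild-type cells, Tlr7 and Tlr9, and Tlr3 and Tlr13 could not be tested at this depth.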
